A study of Mus musculus with 15 samples.

Results

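The circadian clock genes and output factors described here are 10 genes, Dbp, Hlf, Tef, Per1, Per2, Per3, Cry2, Clock, Nr1d2 and Bhlhe41, taken by name from the 15932 genes of a single-cell table of mouse striatum. They were selected on measured values, the log2 fold changes of clock genes in astrocytes under 2 antipsychotic drugs against placebo. For that reason their astrocyte differences between the groups are given as a description, with no test, and tests are given in the other cell classes. All 10 were in the table, and their unique molecular identifiers (UMIs, counts of single RNA molecules) ranged from 159 for Per2 to 2445 for Dbp over all cells.

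The molecular clock is a feedback loop that runs in nearly every cell. CLOCK pairs with BMAL1 (gene Arntl) and switches on genes that carry an E-box, among them the Per and Cry genes, whose proteins return to block the pair. REV-ERB proteins, of which Nr1d2 encodes one, repress Arntl, and Bhlhe41 encodes a repressor that acts at E-boxes. DBP, HLF and TEF are related output factors of the PAR bZIP family, which switch on genes through the D-box.

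Single cells came from the striatum of 15 male C57BL/6J mice bought at 8 weeks of age and habituated for about 1 week. Placebo, haloperidol pellets and olanzapine in food were given to 5 mice each for 28 to 29 days, so the route of delivery differs together with the drug. Haloperidol is a typical antipsychotic that blocks dopamine receptors, and olanzapine an atypical one that also blocks serotonin receptors. The mice lived in a 12 h light and 12 h dark cycle, and the labels used here give no hour of collection. No deletion or transgene is named for any group. The design asks how each drug differs from placebo and from the other in each kind of cell, and each mouse is 1 library.

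Filtering left 5477 cells and 18261763 UMIs. A mouse contributed between 70 and 1172 cells, and between 215990 and 4235427 UMIs. Haloperidol 1 and 2 and olanzapine 1 and 2 had the fewest cells (70 to 122). Of 5355 barcode sequences, 223 occurred in more than 1 library, and 0 such pairs of cells had identical counts. The deposited classes of astrocytes (1603 cells), neurons (959), microglia (887) and neuroblasts (704) carried their own fixed markers. The class labelled olig precursor carried myelin markers (median summed level 66292 CPM, UMIs scaled to the size of the library), and the class labelled oligodendrocyte carried precursor markers (7295 CPM), so both are written with their labels. The class other (524 cells) was vascular, with endothelial markers at 6931 to 15536 CPM and mural markers (smooth muscle and pericytes) at 7466 to 20972 CPM.

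Levels in each class are UMIs summed per mouse and given as CPM, over mice with at least 10 cells of the class. The classes were made from the same cells, so their differences are described and not tested. Of the output factors, Dbp was highest in astrocytes at 255 ± 94.8 CPM (SD, n = 15), where it lay above the neurons of the same mouse in 15 of 15 mice. The class other came next for Dbp at 185 ± 223 CPM (SD, n = 12), a spread larger than its mean. Astrocytes lay above it in 10 of 12 mice, and the class other above neurons (148 ± 59.0 CPM, SD, n = 15) in only 5 of 12, so these neighbours were not separated. Dbp was lower in the class labelled oligodendrocyte (113 ± 53.0, SD, n = 11), the class labelled olig precursor (29.4 ± 19.2, SD, n = 9), microglia (24.7 ± 20.7, SD, n = 13) and neuroblasts (15.4 ± 14.7, SD, n = 14).

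Hlf had the same leading class, with 76.0 ± 22.4 CPM in astrocytes (SD, n = 15), above neurons in 15 of 15 mice. Its next 3 classes lay between 44.1 and 50.3 CPM and were not separated. Tef was highest in neurons at 177 ± 67.6 CPM (SD, n = 15), followed by astrocytes at 151 ± 31.9 CPM (SD, n = 15), and neurons led in 11 of 15 mice. In microglia Tef was lowest, from 0 to 55.9 CPM with a median of 25.5 (n = 13).

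Among the repressors of the core loop, Per3 was highest in astrocytes at 213 ± 69.6 CPM (SD, n = 15), above every other class in each mouse that had both. Cry2 also led there, at 75.4 ± 24.2 CPM (SD, n = 15), above neurons in 14 of 15 mice. Per2 was sparse and highest in astrocytes too, at 21.2 ± 10.2 CPM (SD, n = 15). Per1 showed no clear leader: the class other (34.3 ± 34.8 CPM, SD, n = 12) lay above astrocytes (31.8 ± 20.4 CPM, SD, n = 15) in 6 of 12 mice. The same held for Nr1d2, at 42.4 ± 26.7 CPM (SD, n = 12) in the class other and 40.3 ± 15.8 CPM (SD, n = 15) in astrocytes.

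Clock, the activator, had a different order. Neurons were highest at 108 ± 33.5 CPM (SD, n = 15) and lay above astrocytes (35.8 ± 18.3 CPM, SD, n = 15) in 15 of 15 mice. Bhlhe41 was highest in microglia at 119 ± 69.4 CPM (SD, n = 13), above the class labelled olig precursor (57.2 ± 28.3 CPM, SD, n = 9) in 8 of 9 mice. It was near 0 in neuroblasts (1.64 ± 4.24 CPM, SD, n = 14).

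**Figure D1:**
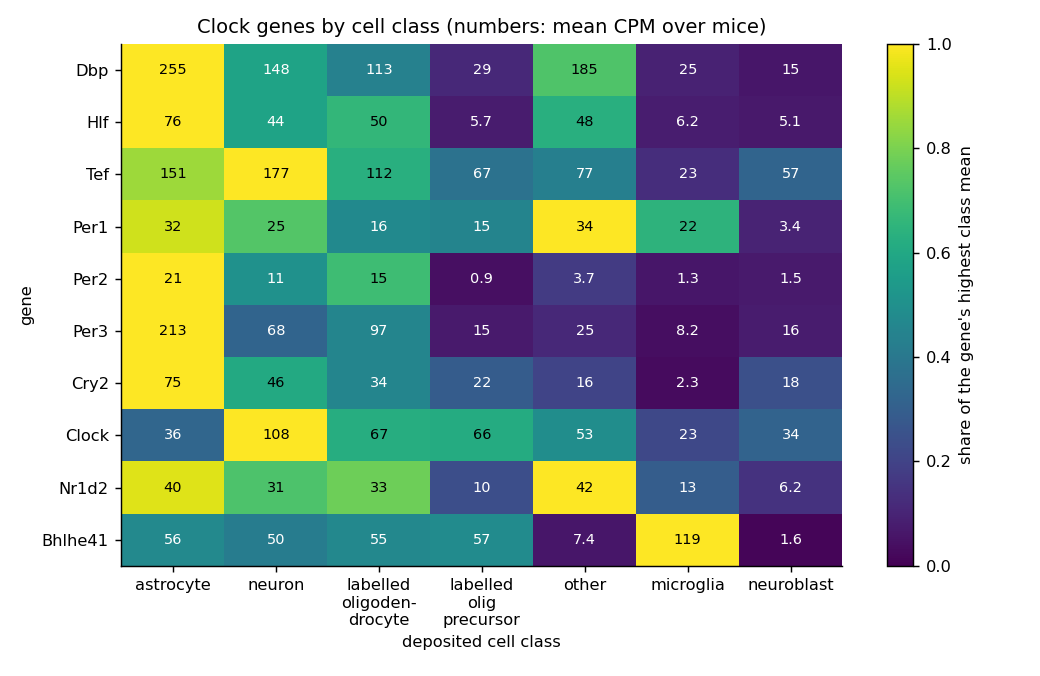
Mean level of each gene (rows) in the 7 deposited cell classes (columns), in CPM averaged over mice, with colour showing the share of the gene's highest class mean. Dbp (255 CPM), Hlf, Per2, Per3 (213 CPM) and Cry2 are highest in astrocytes, Tef and Clock (108 CPM) in neurons, and Bhlhe41 (119 CPM) in microglia.

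Promoter stretches are shown for the members whose promoters hold a motif that was searched for: E-box, D-box and RORE, through which the clock's own factors act, and the cAMP response element, bound by CREB. RefSeq promoters (build GRCm38.p6, 250 bases before to 50 after a start) were given for 9 of the 10 members, 13 promoters in all, and were searched on both strands. The E-box CACGTG was in promoters of 3 members (7.15% of all 32851 promoters hold it), and the D-box TTATGNAA in those of 2 (3.38%). The cAMP response element TGACGTCA was in 1 (1.79%), and RORE, the element of the REV-ERB proteins, in 0 of the 9 (0.38%). No 2 matches in a member promoter overlapped. The motif stands in capitals, 5′ to 3′ on the strand of the gene, and a match is a description of these letters only.
Bhlhe41, chr6:145865543-145865598, minus strand, E-box 153 bases before the start: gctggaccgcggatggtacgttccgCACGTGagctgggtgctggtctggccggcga
Tef, chr15:81802521-81802576, plus strand, E-box 127 bases before the first start: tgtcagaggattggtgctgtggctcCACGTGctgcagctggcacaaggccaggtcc
Tef, chr15:81811251-81811306, plus strand, E-box 138 bases before the other start: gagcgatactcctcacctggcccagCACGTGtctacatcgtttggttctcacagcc
Per1, chr11:69098758-69098957, plus strand, E-box 166 and D-box 24 bases before the start: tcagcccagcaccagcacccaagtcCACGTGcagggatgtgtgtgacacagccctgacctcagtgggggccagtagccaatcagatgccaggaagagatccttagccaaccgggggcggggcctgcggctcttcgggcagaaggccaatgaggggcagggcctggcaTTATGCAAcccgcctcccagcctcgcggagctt
Per3, chr4:151044791-151044895, minus strand, D-boxes 205 and 158 bases before the start: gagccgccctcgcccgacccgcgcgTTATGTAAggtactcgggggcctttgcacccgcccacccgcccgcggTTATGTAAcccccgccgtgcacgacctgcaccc
Hlf, chr11:90390894-90390951, minus strand, cAMP response element 9 bases before the start: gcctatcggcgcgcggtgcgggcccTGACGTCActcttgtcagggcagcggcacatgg

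In astrocytes the members lay higher on average with both drugs than with placebo, with large overlap between mice. Dbp stood at 154 to 307 CPM with placebo, at 169 to 378 CPM with haloperidol and at 156 to 394 CPM with olanzapine. With olanzapine the mice fell apart: 3 stood at 359, 383 and 394 CPM, above every placebo mouse, and 2 at 161 and 156 CPM, near the lowest placebo mice. The 2 low ones are olanzapine 1 and olanzapine 2, which hold 14 astrocytes each. The log2 fold change of Dbp from placebo was 0.63 ± 0.25 with olanzapine and 0.21 ± 0.26 with haloperidol (SE, n = 5 each).

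Hlf, the factor closest to Dbp in this family, stood at 37.4 to 85.8 CPM with placebo, 62.0 to 101 CPM with haloperidol and 64.3 to 120 CPM with olanzapine. Its log2 fold change was 0.62 ± 0.26 with olanzapine and 0.28 ± 0.28 with haloperidol (SE, n = 5 each). Tef stood at 0.36 ± 0.23 with olanzapine and 0.17 ± 0.23 with haloperidol (SE, n = 5 each). For all 3 output factors the olanzapine value was the larger in astrocytes.

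Cry2 and Clock had the largest astrocyte values with haloperidol. Cry2, a repressor of the loop, read 64.2, 34.1, 65.5, 63.3 and 56.1 CPM in the placebo mice and 102, 94.0, 59.1, 110 and 81.8 CPM in the haloperidol mice. So 4 of 5 haloperidol mice lay above every placebo mouse, and the log2 fold change was 0.55 ± 0.27 (SE, n = 5 each). Clock stood at 13.7 to 30.6 CPM with placebo, 12.6 to 73.1 CPM with haloperidol and 28.0 to 64.3 CPM with olanzapine, with log2 fold changes of 0.71 ± 0.37 and 0.52 ± 0.36 (SE, n = 5 each). Clock passed the filter on low counts in astrocytes through 3 haloperidol and 3 olanzapine mice, with 0 placebo mice at its level. Per3 stood at 0.30 ± 0.24 and 0.11 ± 0.24, and Bhlhe41 at 0.54 ± 0.37 and 0.45 ± 0.36, for haloperidol and olanzapine in that order (SE, n = 5 each). Nr1d2 was near 0 with both, at 0.14 ± 0.34 and 0.05 ± 0.32 (SE, n = 5 each).

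Only 8 of the 10 members passed the filter on low counts in astrocytes, and Per1 and Per2 passed it in no class. Per1 stood at 26.0 ± 16.5 CPM with placebo, 39.6 ± 23.3 with haloperidol and 29.9 ± 22.9 with olanzapine (SD, n = 5 each). Per2 stood at 14.9 ± 6.13, 25.6 ± 12.3 and 23.2 ± 9.65 CPM (SD, n = 5 each). These rest on 121 and 74 UMIs over all mice, and the groups overlapped.

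The median log2 fold change of the 8 members in astrocytes was 0.29 with haloperidol and 0.41 with olanzapine, beside -0.01 and -0.02 over all 4515 genes tested there. With each drug 8 of 8 were higher, a direction known when the members were chosen. Clock, which is among them, passed the filter only through mice given a drug. The comparisons share the placebo mice. The groups overlapped for each member, where 0.399% of the genes had every haloperidol mouse above every placebo mouse and 0.177% every olanzapine mouse. Leaving out 1 mouse brought some values to 0 or below: Dbp with haloperidol to -0.002 without haloperidol 5, Nr1d2 with haloperidol to -0.001 without placebo 2, and, without olanzapine 4, Bhlhe41 with olanzapine to -0.07 and Nr1d2 to -0.10. Genes of the mitochondrial genome, a sign of cell state, were higher as well, 11 of 12 with haloperidol and 10 of 12 with olanzapine. Ribosomal protein genes were mostly lower: 23 of 73 were higher with haloperidol (median -0.06) and 6 of 73 with olanzapine (median -0.16). The part of either in the members' values was not tested. Of 4 glucocorticoid response genes tested, 3 and 2 were higher, and of 5 activity response genes 1 and 4.

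Outside astrocytes the members were tested with edgeR's quasi-likelihood test, adjusted over all genes of a class, at a threshold of 0.05. For olanzapine against placebo 19 pairs of a member and a class were tested and 0 were called, where 0.0472% of all 23329 tests were. An unadjusted p under 0.05 was found in 7 of the 19, beside 4.34% of all 18814 tests outside astrocytes, and 12 were higher, beside 49.4% of all. By class, these were 2 of 3 pairs in the class other, where 311 of 3202 genes had such a p, and 3 of 7 in neurons (168 of 4388 genes). The rest were 1 of 4 in the class labelled oligodendrocyte (92 of 3203 genes) and 1 of 1 in microglia (99 of 3078 genes). For haloperidol against placebo 0 of 16 pairs were called (0.0097% of all 20628 tests), with 2 at an unadjusted p under 0.05 (3.99% of all 16113 tests outside astrocytes) and 13 higher (49.8% of all). Between the drugs 0 of 16 pairs were called (0% of all 20628 tests), with 3 at an unadjusted p under 0.05 (3.46% of all outside astrocytes) and 8 higher with haloperidol (50.7% of all). The pairs are those that passed the filter on low counts, and they share mice and classes. Some passed mainly through the mice of 1 group, among them Tef in the class labelled olig precursor (olanzapine) and in neuroblasts (haloperidol). Another was Per3 in the class labelled oligodendrocyte (placebo). Hlf in neurons, among the 7 with olanzapine, passed with 0 placebo mice at the level of the filter. Tef in neuroblasts, among the 3 between the drugs, passed with 0 olanzapine mice at that level. The mice are also those whose astrocyte values the members were chosen on, so these counts are not independent of that choice. DESeq2 called 1 pair for olanzapine against placebo, 0 for haloperidol against placebo and 0 between the drugs.

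**Figure D2:**
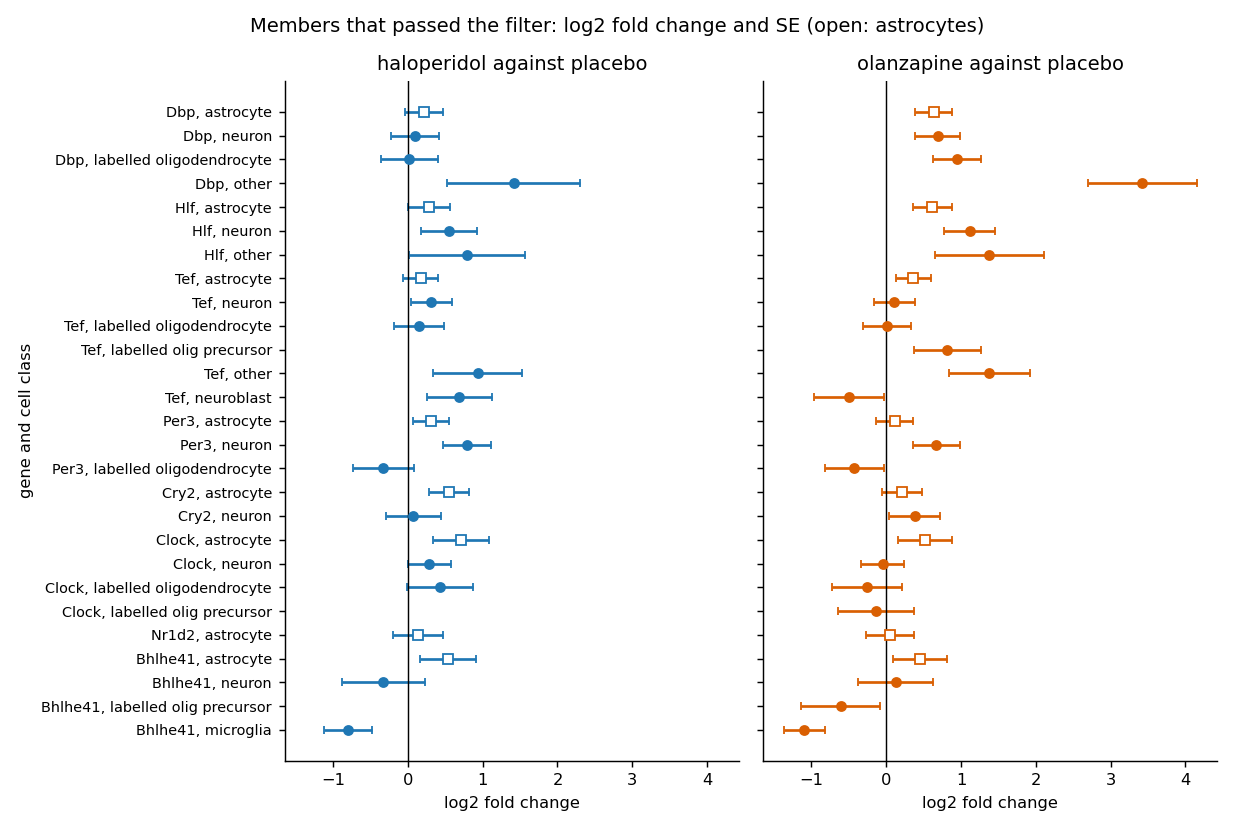
Log2 fold change (horizontal axis) with its SE for each member and class that passed the filter (rows), for haloperidol on the left and olanzapine on the right, both against placebo. Open squares are astrocytes, whose values are a description. Dbp in the class other with olanzapine lies farthest to the right, at 3.43, and Bhlhe41 in microglia farthest to the left, at -1.09.

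The largest difference of any member was that of Dbp in the vascular class other. Placebo mice stood at 103, 45.1, 14.2, 24.1 and 15.1 CPM and olanzapine mice at 336, 349 and 736 CPM. Each of the 3 olanzapine mice with enough cells lay above each of the 5 placebo mice. Haloperidol mice spread over both ranges, at 376, 18.5, 156 and 48.8 CPM. Counts behind these values were 101, 19 and 107 UMIs in the olanzapine mice, with at most 9 UMIs in 1 cell, and 18, 9, 1, 3 and 3 UMIs in the placebo mice.

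The log2 fold change of Dbp in this class was 3.43 ± 0.73 with olanzapine (SE, n = 3 against 5), which did not pass (edgeR adjusted p = 0.106). It passed in other fits of the same mice. DESeq2 gave 3.51 (adjusted p = 0.0153), where 0.0787% of its 21589 tests over all classes were called. The edgeR fit with only the 2 groups gave 3.43 (adjusted p = 0.00732), where 0.0836% of 21520 tests over all classes were called. Calls were not spread evenly over classes. All 11 genes called with olanzapine in the main edgeR fit were in the class other, out of 3202 tested there. An unadjusted edgeR p under 0.05 was found for 311 of these 3202 genes. Without haloperidol 2 the edgeR adjusted p was 0.0324 and without haloperidol 3 it was 0.028, with log2 fold changes of 3.42 and 3.43. These 2 mice, at the ends of the haloperidol range, enter the estimate of the spread and not the difference. Over all alternatives the adjusted p ran from 0.00732 to 0.597, and without 1 mouse the log2 fold change ran from 2.92 (without olanzapine 5) to 4.11 (without placebo 1).

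Marker levels in the class other moved with olanzapine as well. Summed mural markers stood at 14617 to 20972 CPM in olanzapine mice and 7466 to 12676 CPM in placebo mice, while endothelial markers overlapped (6931 to 14771 against 9415 to 15536 CPM). Neuron markers stood at 413 to 580 CPM in the olanzapine mice and 97.7 to 398 CPM in the placebo mice, also without overlap. Ribosomal protein genes, a broad part of every cell's RNA, were lower: 0 of 73 were higher with olanzapine (median -0.31) and 1 of 73 with haloperidol (median -0.35). The part of these in the members' values in this class was not tested. In the cells of this class typed as endothelial by those markers, an alternative chosen after seeing the data, Dbp read 188, 172 and 343 CPM with olanzapine and 37.6, 36.5, 0 and 9.44 CPM with placebo. That is a log2 fold change of 3.27 ± 0.56 (SE, n = 3 against 4) on 27, 5 and 18 UMIs against 4, 5, 0 and 1. Dbp passed the filter there only through the 3 olanzapine mice, with 0 mice of the other groups at its level, so this value is a description with no test. Mural-typed cells gave 2.70 ± 0.80 (SE, n = 3 against 4, edgeR adjusted p = 0.54). Activity response genes, which cells switch on within minutes of a stimulus, were also higher in the class other with olanzapine, 8 of 8 tested with a median of 0.88, and Egr1 passed (1.19 ± 0.26, edgeR adjusted p = 0.0456). With haloperidol 7 of 8 were higher there, with a median of 0.34. The part of these genes in the Dbp value was not tested. Fewer cells of a kind and less RNA per cell cannot be told apart in such sums.

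Both relatives of Dbp were higher in the class other too, without passing. Tef read 110, 91.7 and 117 CPM in olanzapine mice and 74.7, 30.1, 14.2, 40.2 and 35.3 CPM in placebo mice, again without overlap. Its log2 fold change was 1.38 ± 0.54 (SE, n = 3 against 5, edgeR adjusted p = 0.416). In this class 4.09% of the 3202 genes tested had every olanzapine mouse above every placebo mouse, and Dbp and Tef were 2 of the 3 members tested that did. Hlf overlapped, at 19.99, 128 and 96.3 CPM against 10.0 to 71.1 CPM (1.38 ± 0.73, SE, edgeR adjusted p = 0.563), and was 2.08 without olanzapine 3 and 0.94 without olanzapine 5. It passed the filter through 2 olanzapine mice and 1 haloperidol mouse, with 0 placebo mice at its level. With haloperidol the 3 factors stood at 1.41 ± 0.89 (Dbp), 0.79 ± 0.77 (Hlf) and 0.93 ± 0.60 (Tef), with edgeR adjusted p-values of 0.843 to 0.884. Without haloperidol 2, which has 12 cells in this class, Dbp stood at 0.61 and Tef at 0.31.

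Dbp was higher with olanzapine in the glial class labelled oligodendrocyte, which carried precursor markers. Olanzapine mice read 141, 237 and 162 CPM, placebo mice 112, 93.2, 44.0 and 79.7 CPM, and haloperidol mice 63.1 to 112 CPM. The olanzapine mice lay above all mice of both other groups, as every olanzapine mouse did above every placebo mouse for 2.53% of the 3203 genes there. The log2 fold change from placebo was 0.94 ± 0.32 (SE, n = 3 against 4, edgeR adjusted p = 1). Haloperidol against olanzapine gave -0.93 ± 0.37 (SE, n = 4 against 3, edgeR adjusted p = 0.988), and haloperidol against placebo 0.02 ± 0.38 (edgeR adjusted p = 1). Marker levels in this class moved with olanzapine too. Myelin markers stood at 609 to 1312 CPM in olanzapine mice and 1686 to 2927 CPM in placebo mice, and neuron markers at 1435 to 1552 against 1073 to 1327 CPM, both without overlap. Astrocyte markers overlapped (782 to 815 against 639 to 812 CPM), and 10 of 72 ribosomal protein genes were higher (median -0.15). The part of these in the Dbp value was not tested.

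Microglia held little Dbp, and it did not pass the filter there, so it was not tested. Olanzapine mice read 48.7, 52.4, 38.1, 35.7 and 61.5 CPM, and placebo mice 19.7, 25.5, 10.5, 12.8 and 4.56 CPM. All 5 olanzapine mice lay above all 5 placebo mice. Of the 3078 genes that passed the filter, which do not include Dbp, 0.195% did so. No such share was computed for genes as sparse as Dbp. In the haloperidol mice 0, 0 and 2 UMIs were counted, and a count of 0 allows up to 14.2 and 20.1 CPM (counting error only). The UMIs behind the other values are few, 71 over the olanzapine mice and 11 over the placebo mice. By raw library size, 3 UMIs amount to 50.3 CPM in olanzapine 1 and 39.0 CPM in olanzapine 2, which held 20 microglia each. Olanzapine 3 held 285 microglia, so the olanzapine UMIs are spread unevenly over mice. Astrocyte markers, where Dbp is high, overlapped in these microglia, at 103 to 235 CPM with olanzapine and 89.2 to 236 CPM with placebo.

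**Figure D3:**
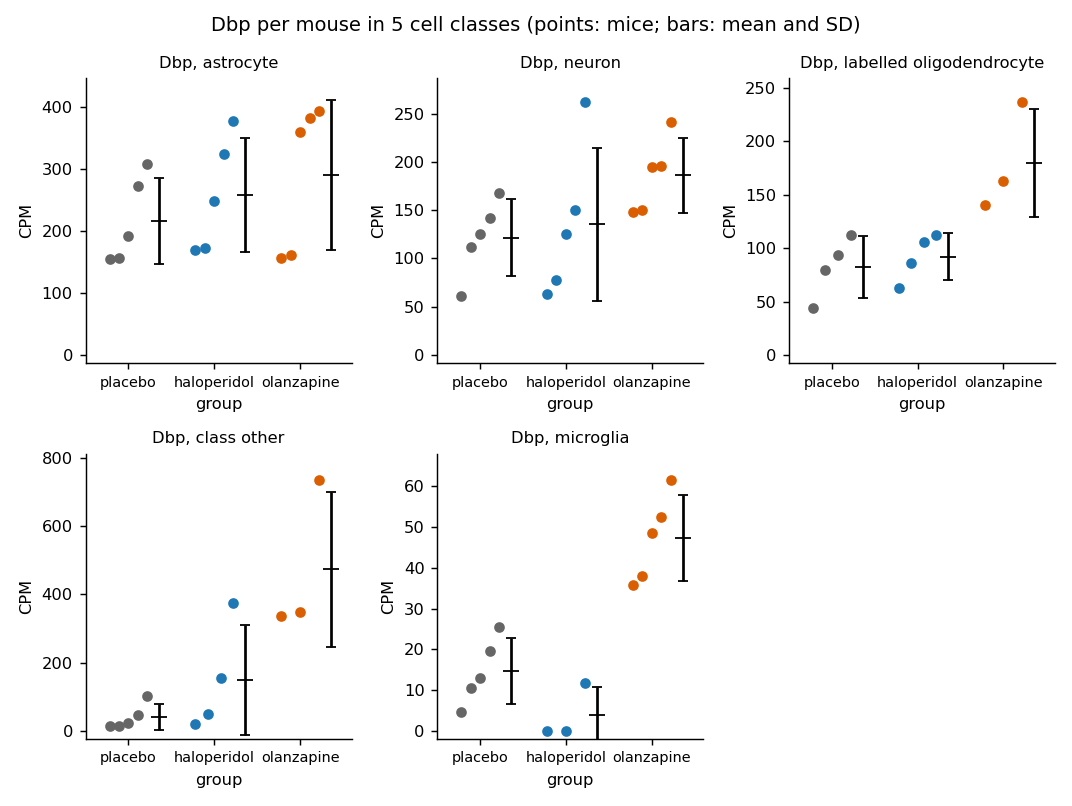
Dbp in CPM (vertical axis) in each mouse (points, ordered by value) for placebo, haloperidol and olanzapine, in 5 cell classes, with the mean and SD beside the points. Olanzapine mice lie above all placebo mice in the class labelled oligodendrocyte, the class other (336 to 736 against 14.2 to 103 CPM) and microglia, and overlap with them in astrocytes and neurons.

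In neurons Dbp, Hlf and Per3 were higher with olanzapine, without passing. Hlf read 49.3, 25.01, 54.9, 77.9 and 82.9 CPM with olanzapine and 26.9, 21.7, 30.3, 37.9 and 33.9 CPM with placebo. In 4 of 5 olanzapine mice it lay above every placebo mouse, and the exception was olanzapine 2 with 24 neurons. The log2 fold change was 1.12 ± 0.34 (SE, n = 5 each, edgeR adjusted p = 0.999) and stayed between 0.92 and 1.23 without any 1 mouse. Hlf passed the filter in neurons through 3 olanzapine and 2 haloperidol mice, with 0 placebo mice at its level. Dbp read 148 to 241 CPM with olanzapine and 61.7 to 168 CPM with placebo (0.69 ± 0.30, SE, n = 5 each, edgeR adjusted p = 0.999). With haloperidol it spread from 62.9 to 262 CPM, and its log2 fold change of 0.10 ± 0.32 turned to -0.17 without haloperidol 2.

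Per3, a period gene of the repressing arm, was the one member at an unadjusted p under 0.05 in neurons with both drugs. Placebo mice read 62.8, 32.6, 80.9, 42.7 and 29.1 CPM, haloperidol mice 109, 75.0, 78.1, 65.8 and 96.8 CPM, and olanzapine mice 49.3, 62.5, 107, 63.3 and 71.1 CPM. Its log2 fold change was 0.79 ± 0.32 with haloperidol and 0.67 ± 0.32 with olanzapine (SE, n = 5 each, edgeR adjusted p = 0.999 for both), and the groups overlapped.

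Of the 7 members tested in neurons, 6 were higher with each drug, with medians of 0.28 for haloperidol and 0.38 for olanzapine, beside -0.002 and -0.01 over all genes tested. Bhlhe41 was the lower one with haloperidol (-0.33 ± 0.55) and Clock with olanzapine (-0.05 ± 0.29). With olanzapine the means over mice went the other way for 2 members. Clock averaged 101 CPM against 98.2 CPM with placebo, and Bhlhe41, fitted at 0.13 ± 0.50, averaged 45.0 against 57.5 CPM, with 0 UMIs in olanzapine 1 and 2. Groups overlapped for all 7 with olanzapine, where 0.57% of the 4388 genes had every olanzapine mouse above every placebo mouse. Genes of the mitochondrial genome were higher in neurons too, 12 of 13 with each drug, and 6 of 6 activity response genes with olanzapine (1 of 6 with haloperidol). Ribosomal protein genes were mostly lower in neurons: 9 of 73 were higher with haloperidol (median -0.15) and 11 of 73 with olanzapine (median -0.12). The part of any of these in the members' values was not tested. Tef in neurons (0.31 ± 0.27 with haloperidol) rested on haloperidol 2 at 412 CPM and came to -0.01 without that mouse.

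Bhlhe41 went the other way in microglia, the class where it is highest. Placebo mice read 108, 293, 168, 141 and 182 CPM, olanzapine mice 64.9, 39.3, 69.4, 116 and 83.8 CPM, and haloperidol mice 145, 92.9 and 41.2 CPM. In 4 of 5 olanzapine mice and 2 of 3 haloperidol mice it lay below every placebo mouse. The log2 fold change was -1.09 ± 0.28 with olanzapine (SE, n = 5 each, edgeR adjusted p = 1) and -0.81 ± 0.32 with haloperidol (SE, n = 3 against 5, edgeR adjusted p = 0.947). Without 1 mouse it stayed between -1.28 and -0.93 with olanzapine, and between -1.34 (without haloperidol 3) and -0.46 (without haloperidol 5) with haloperidol. The microglial markers overlapped, at 27996 to 37033 CPM with olanzapine, 29241 to 30635 CPM with haloperidol and 29955 to 39922 CPM with placebo.

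**Figure D4:**
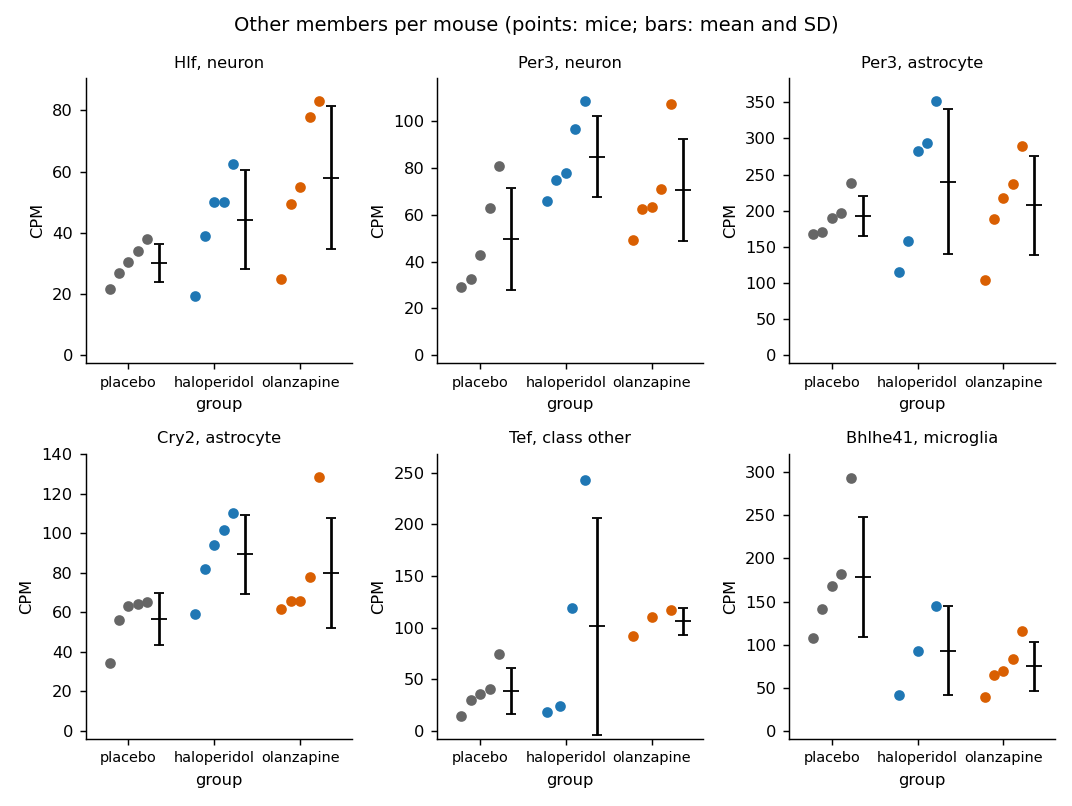
Level in CPM (vertical axis) of 5 further members in each mouse (points, ordered by value) by group, with the mean and SD beside the points. Hlf and Per3 in neurons lie higher with the drugs on average, Tef in the class other lies above all placebo mice in the 3 olanzapine mice (91.7 to 117 CPM), and Bhlhe41 in microglia lies lower with both drugs.

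The remaining tested pairs were in neuroblasts and in the classes with oligodendroglial labels. In neuroblasts Tef was the single member tested, at 0.69 ± 0.44 with haloperidol (SE, n = 5 each, edgeR adjusted p = 0.999) and -0.50 ± 0.47 with olanzapine (SE, n = 4 against 5, edgeR adjusted p = 0.999). The drugs differed there by 1.19 ± 0.47 (SE, n = 5 against 4, edgeR adjusted p = 1), and the groups overlapped. Tef passed the filter in neuroblasts through 3 haloperidol mice and 1 placebo mouse, with 0 olanzapine mice at its level. In the class labelled oligodendrocyte, Per3 was lower with both drugs (-0.33 ± 0.40 and -0.43 ± 0.39), and Clock was at 0.43 ± 0.44 with haloperidol and -0.26 ± 0.47 with olanzapine. Per3 passed the filter there mainly through 3 placebo mice, with 1 haloperidol and 1 olanzapine mouse at its level. Its haloperidol mice spread from 16.1 to 239 CPM. Clock passed there through 2 haloperidol mice and 1 placebo mouse, with 0 olanzapine mice at its level. In the class labelled olig precursor, tested for olanzapine only, Tef was at 0.82 ± 0.45, Clock at -0.14 ± 0.50 and Bhlhe41 at -0.61 ± 0.53 (SE, n = 4 against 3). Tef passed the filter in that class mainly through 3 olanzapine mice, with 1 haloperidol and 0 placebo mice at its level. Its value there is therefore a description. Bhlhe41 passed there through 2 haloperidol mice and 1 placebo mouse, with 0 olanzapine mice at its level. The edgeR adjusted p-values in these 2 classes were all 1.

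Between the drugs in astrocytes, where the values are differences of those the members were chosen on and so a description, 5 of 8 members were higher with haloperidol, with a median of 0.09 beside 0.02 over all genes. Dbp (-0.42 ± 0.26), Hlf (-0.33 ± 0.27) and Tef (-0.19 ± 0.24), the 3 output factors, were lower with haloperidol than with olanzapine, and Cry2 (0.34 ± 0.27), Per3, Clock, Nr1d2 and Bhlhe41 were higher (SE, n = 5 each). In neurons Dbp (-0.59 ± 0.30) and Hlf (-0.57 ± 0.31) were also lower with haloperidol (SE, n = 5 each, edgeR adjusted p = 1). In the class other, Dbp stood at -2.01 ± 0.77 (SE, n = 4 against 3, edgeR adjusted p = 0.999), with overlap, and at -2.81 without haloperidol 2 and -1.34 without haloperidol 3.

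With all cells of a mouse summed, Dbp was 0.88 ± 0.28 higher with olanzapine and 0.40 ± 0.29 higher with haloperidol (SE, n = 5 each). Hlf stood at 0.75 ± 0.29 and 0.61 ± 0.30, Tef at 0.31 ± 0.20 and 0.49 ± 0.20, and Cry2 at 0.35 ± 0.21 and 0.48 ± 0.21, in the same order. These sums mix classes whose shares differ between mice. Astrocytes hold 1203 of the 2445 Dbp UMIs, so the sums contain values the members were chosen on and are a description with no test.

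Of 22 names of other clock genes on a fixed list, 21 were in the table. The name not found, Chrono, is another name of Ciart, which was found. Outside astrocytes 0 of these genes were called in any class or comparison. Their astrocyte values are a description, since the members were chosen on clock gene values there. In astrocytes 7 of 8 were higher with haloperidol and 5 of 8 with olanzapine, beside 49.1% and 46.5% of all genes tested. Nr1d1, which encodes the other REV-ERB protein, read 84.2 ± 17.5 CPM with placebo, 106 ± 26.4 with haloperidol and 97.3 ± 38.5 with olanzapine (SD, n = 5 each). Its log2 fold change was 0.23 ± 0.26 with haloperidol and -0.13 ± 0.26 with olanzapine (SE, n = 5 each). The olanzapine mean was raised by olanzapine 1 and 2, at 161 and 104 CPM from 5 and 4 UMIs, and the other olanzapine mice stood at 62.9 to 81.9 CPM. Arntl, the partner of Clock, passed the filter in no class and read 29.3 ± 8.60, 30.4 ± 18.1 and 13.6 ± 12.6 CPM in astrocytes (SD, n = 5 each, in the order placebo, haloperidol, olanzapine). Olanzapine 1 and 2 had 0 UMIs of it, which allows up to 100.1 and 77.9 CPM, and the other olanzapine mice stood at 26.4, 21.6 and 19.98 CPM. Ciart, a repressor of the loop, read 11.2 ± 8.59, 16.2 ± 5.00 and 28.0 ± 8.06 CPM, and Cry1, the relative of Cry2, 11.3 ± 13.1, 30.7 ± 16.3 and 11.1 ± 10.7 CPM (SD, n = 5 each, in the same order). For Cry1 the same 2 olanzapine mice, and placebo 2 and 3, had 0 UMIs, and the other olanzapine mice stood at 16.2, 15.4 and 23.98 CPM. Neither passed the filter in any class, and neither was tested.

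Whether a mouse high for a member in astrocytes was also high in neurons was asked over the 15 mice after subtraction of each group's mean log2 CPM. None of the 10 members passed (permutation within groups, two-sided, adjusted over the 10), and both classes of a mouse share a library. For Dbp Pearson's r was 0.43 (permutation p = 0.113, adjusted p = 0.564) and Spearman's rho 0.36 (permutation p = 0.214, adjusted p = 0.712), and r was 0.35 without the 2 mice farthest from the median. For Bhlhe41 r was 0.66 (permutation p = 0.0146, adjusted p = 0.146) and rho 0.52 (permutation p = 0.0673, adjusted p = 0.673), and r fell to 0.31 without haloperidol 1 and olanzapine 1.

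Against Arntl in astrocytes, which as background cycles opposite to Dbp and the Per genes, again 0 of 10 passed. Dbp had r of 0.67 (permutation p = 0.033, adjusted p = 0.165) and rho of 0.63 (permutation p = 0.0497, adjusted p = 0.248). Without olanzapine 1 and olanzapine 2, which had 0 Arntl UMIs in 14 astrocytes each, r was 0.25, so the relation rests on those mice. Bhlhe41 had r of 0.66 (permutation p = 0.0264, adjusted p = 0.165) and rho of 0.61 (permutation p = 0.0376, adjusted p = 0.248), with r at 0.34 without haloperidol 1 and olanzapine 1. Cry2 was the member with the lowest value, r = -0.47 (permutation p = 0.108, adjusted p = 0.27) and rho = -0.49 (permutation p = 0.0817, adjusted p = 0.272), with r at -0.51 without olanzapine 1 and placebo 2.

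Genes whose level followed Dbp most closely over the 15 mice in astrocytes were chosen among 4617 genes outside the clock lists, by Pearson's r after subtraction of group means. They were Tex9 (r = 0.86), Gt(ROSA)26Sor (0.83), Tank (0.81), Bicd1 (0.81) and Tpr (0.81). These are the top of a long ranking over mice that differ in depth, and are given as a description. Within the members, r with Dbp in astrocytes was 0.47 for Hlf and -0.17 for Tef, so the 3 output factors did not follow each other closely from mouse to mouse. Gene models touch the counts of some members: Sphk2 overlaps Dbp on the opposite strand, and Camta1 overlaps Per3 on the same strand. The sources used here do not state how reads on overlapping genes were counted.

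Positions of the members are those of GENCODE M21 on GRCm38 (mm10). Dbp lies on chromosome 7 (45705088 to 45710203), Hlf on 11 (90336536 to 90390895), Tef on 15 (81802421 to 81826863), Per1 on 11 (69095217 to 69109960) and Per2 on 1 (91415982 to 91459324). Per3 lies on chromosome 4 (151003652 to 151044665), Cry2 on 2 (92403646 to 92434043), Clock on 5 (76209868 to 76304792), Nr1d2 on 14 (18204054 to 18239127) and Bhlhe41 on 6 (145858243 to 145865558).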

How the data were processed

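The deposited table holds UMI counts, whole numbers per gene and cell, for 5581 cells, with lines for the mouse, drug and class of each; all 5581 drug lines matched the labels. Cell Ranger, Seurat and mm10 were used by the authors, per the submitters' processing notes; their versions and the counting settings are not stated there. Every deposited cell had at least 501 genes. Here 23 cells over 20% mitochondrial UMIs and 81 doublets (Scrublet per mouse in scanpy 1.11.5, Python 3.11.15; 38 of them in olanzapine 2) were removed. Counts were summed per mouse and deposited class (at least 10 cells per mouse, 3 mice per group) and fitted over all 3 groups with edgeR 4.0.16 in R 4.3.3 (TMM, filterByExpr, robust quasi-likelihood F test, two-sided, Benjamini-Hochberg within class and comparison, threshold 0.05), a script tested on simulated data. CPM use TMM library sizes; log2 CPM use a prior count of 2. Chi-square per degree of freedom was 3.40 or more in all 30 pairs of mice within a group, so no mouse was counted as a repeat. Correlations used 100000 permutations (scipy 1.17.1). Alternatives included DESeq2 1.42.0, other filters and leaving out each mouse. All 10 members are named; of other clock genes Arntl, Nr1d1, Ciart and Cry1, and those called; of the lists beside them at most 3 by p in astrocytes (Egr1 in the class other was chosen after its value was seen); of genes like Dbp the 5 with the highest r. The members and lists were chosen with earlier results of these data known. The test planned between the drugs in astrocytes, and the alternative with all cells summed, are given as values without a test, since they contain the values the members were chosen on.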

Additional observations from a re-analysis of the deposited data

Results flagged for a closer look

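In 4 of 67 groups of mice, the highest mouse stood far from the rest by Dixon's test at 95%, which chance does in about 1 in 20 groups. They were Tef in neurons of haloperidol 2 (412.4 CPM, the next mouse 182.6), Tef in astrocytes of haloperidol 5 (201.4 CPM, the next 147.0), Cry2 in astrocytes of olanzapine 1 (128.7 CPM, the next 77.9) and Clock in neurons of placebo 3 (131.4 CPM, the next 92.3). Haloperidol 2 and olanzapine 1 are among the 4 mice with the fewest cells.

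Tef with olanzapine lay on opposite sides of the placebo mean in different classes. The log2 fold change was 1.378 in the class other and 0.819 in the class labelled olig precursor, where every olanzapine mouse stood above the placebo mean, and -0.501 in neuroblasts, where every olanzapine mouse stood below it. This difference between classes was not tested, and in neuroblasts the margin was narrow. The highest olanzapine mouse stood there at 52.79 CPM and the placebo mean at 52.86 CPM. The medians went the other way, at 42.5 CPM with olanzapine and 39.4 CPM with placebo. In the class labelled olig precursor Tef passed the filter on low counts mainly through 3 olanzapine mice, with 0 placebo mice at its level. In neuroblasts it passed through 3 haloperidol mice and 1 placebo mouse, with 0 olanzapine mice at its level.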

How the results depend on the processing

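The count of members called with olanzapine against placebo was 0. It was 1 under DESeq2, with only the 2 groups fitted, and without the 4 mice with the fewest cells. Without 1 mouse it ran from 0 to 1. The gene was Dbp in the class other each time. Of those 4 mice only haloperidol 2 had enough cells of that class, so there the fit without them is the fit without haloperidol 2. In endothelial-typed cells Dbp passed the filter only through the olanzapine mice, so its value there is not counted as a call. For haloperidol against placebo and between the drugs the count was 0 under every alternative run. With doublets kept, 1 member passed for astrocytes against neurons. The following log2 fold changes, none of them called, changed sign. With at least 20 cells per mouse, haloperidol against placebo in neurons gave Cry2 -0.019, Dbp -0.17 and Tef -0.005, and in the class labelled oligodendrocyte Dbp -0.052; haloperidol against olanzapine in neurons gave Tef -0.14. Without the 4 mice, Dbp gave -0.21 in neurons and -0.04 in the class labelled oligodendrocyte (haloperidol against placebo); between the drugs Nr1d2 gave -0.036 in astrocytes, Per3 -0.048 and Tef -0.073 in neurons, and Per3 -0.39 in the class labelled oligodendrocyte. DESeq2 gave Bhlhe41 -0.17 in neurons with olanzapine. In the class labelled oligodendrocyte, Dbp with haloperidol gave -0.092 without a filter and -0.001 with 2 groups, and Tef with olanzapine -0.042 without a filter, -0.026 under DESeq2 and -0.03 with doublets kept. The causes were not tested.

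Without 1 mouse, values of haloperidol against placebo ran from -0.055 to 0.198 (Cry2), -0.17 to 0.32 (Dbp) and -0.008 to 0.406 (Tef) in neurons, and -0.18 to 0.25 (Dbp) and -0.016 to 0.295 (Tef) in the class labelled oligodendrocyte. Those of olanzapine against placebo ran from -0.147 to 0.077 (Clock) and -0.22 to 0.38 (Bhlhe41) in neurons and -0.26 to 0.17 (Tef) in the class labelled oligodendrocyte. Between the drugs they ran from -0.12 to 0.38 (Clock), -0.23 to 0.62 (Bhlhe41) and -0.052 to 0.244 (Nr1d2) in astrocytes, -0.25 to 0.64 (Bhlhe41) in microglia, -0.10 to 0.30 (Tef) in neurons, -0.39 to 0.37 (Per3) and -0.044 to 0.391 (Tef) in the class labelled oligodendrocyte, and -1.06 to 0.24 (Tef) in the class other. Scrublet's threshold in olanzapine 2 took 38 of 128 cells and may be at fault, and olanzapine 1 and 2 entered no fit of the class other. No paired analysis was possible because the labels number the mice across groups and share no number between them.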
